A study of Arabidopsis thaliana with 30 samples.

Results

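Nuclei of fibers and nuclei of differentiating vessel elements of the Arabidopsis thaliana inflorescence stem were compared gene by gene, for functions other than photosynthesis and secondary wall synthesis. The comparison comprised 6 of the 30 libraries of the series: 3 libraries of GFP-positive NST3pro nuclei, numbered 1, 2 and 3, against 3 libraries of GFP-positive VND7pro nuclei, numbered 4, 5 and 6. They were chosen by their labels, as all libraries of both lines in a count table of 21 GFP-positive libraries from 7 stem tissues. All 3 libraries a side entered the main test, which was repeated without NST3pro 2 and VND7pro 6, because the study had set both aside as outliers.

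The study profiled nuclei of stem tissues after fluorescence-activated nucleus sorting. Plants of both groups were of the Col-0 accession and homozygous for 1 transgene, which expressed histone H4 fused to GFP under the NST3 promoter (NST3pro:H4-GFP, fibers) or under the VND7 promoter (VND7pro:H4-GFP, differentiating vessel elements). Nuclei came from the second internode of plants moved from short to long days to induce flowering, and 15000 nuclei were sorted for each library. No treatment was applied, and groups rest on where each promoter was active, so any other nucleus with an active promoter was sorted with them. Each promoter was carried by its own transgenic plants, so plant line and cell type cannot be told apart.

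Fibers and vessel elements are the lignified cell types of xylem. Vessel elements conduct water as dead, hollow tubes: after depositing a patterned secondary wall they execute a cell death program, with proteases and nucleases that clear the cell content. Fibers give mechanical support, and in Arabidopsis stems they keep a nucleus for longer than vessel elements do. NST3 and NST1 are NAC transcription factors that switch on wall thickening in fibers, whereas VND proteins are their counterparts in vessels.

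Library totals were 9480247, 3272254 and 14664449 reads in NST3pro 1, 2 and 3, against 6508909, 3400268 and 3605651 reads in VND7pro 4, 5 and 6. Levels are given as TMM-scaled CPM (read counts relative to the scaled library total), in the order of the library numbers. On this scale 1 read was worth 0.0875 to 0.423 CPM, so levels below a few CPM rest on few reads. NST3pro 2 correlated most closely with a PXYpro library and not with its own group (Pearson's r 0.734 across genes), while NST3pro 1 and 3 reached r 0.847 and each VND7pro library was closest to another VND7pro library. Neither labels nor methods tell whether the 3 libraries of a line came from separate plants. The main test estimated spread from the GFP-positive libraries of all tissues in the count table, not from these groups alone. Its p-values therefore measure replicate spread pooled over tissues, which may be technical.

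The genes behind both promoters leaned in the direction of the labels, without passing the test described below. NST3 had 199, 153 and 188 CPM in NST3pro, against 75.3, 92.3 and 45.6 CPM in VND7pro nuclei, and no library of one group reached into the other. Its log2 fold change (always NST3pro minus VND7pro, ± SE) of 1.34 ± 0.44 (adjusted p 0.0697) did not pass the test. VND7 had 7.75, 37 and 28.1 CPM in NST3pro, against 54.3, 49.1 and 42.8 CPM in VND7pro nuclei, again without overlap and below the threshold of the test (-1.01 ± 0.54, adjusted p 0.298). The fiber gene NST1 had 137, 45.9 and 82.6 CPM in NST3pro, against 73.2, 81.7 and 30.2 CPM in VND7pro nuclei, so that its groups overlapped (0.53 ± 0.39, adjusted p 0.489). VND6, the second vessel regulator on the marker list, had 8.04, 11.6 and 9.11 CPM in NST3pro, against 69.9, 66.5 and 26.9 CPM in VND7pro nuclei (-2.51 ± 0.65, adjusted p 0.0221). The vessel proteases XCP1 and XCP2, described below, separated both groups clearly.

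Of 31583 genes tested, 614 (1.94%) passed edgeR's quasi-likelihood test at a Benjamini-Hochberg adjusted p (adjusted p from here on) under 0.01 with a fold change over 2. Transcripts of 265 genes (0.839%) were higher in NST3pro nuclei and those of 349 genes (1.11%) were higher in VND7pro nuclei, while the median log2 fold change over all genes was -0.03. "Higher" and "lower" are used below only for genes past this test. Groups did not overlap for 601 of the 614 genes. Over all tested genes, all NST3pro libraries exceeded all VND7pro libraries in 7.67% and the reverse held in 9.44%. Without NST3pro 2 and VND7pro 6, 841 of 32792 genes (2.56%) passed, 286 (0.872%) of them higher in NST3pro nuclei and 555 (1.69%) in VND7pro nuclei, and 470 of the 614 genes were among them.

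Single libraries carried much of the spread. Among the 265 genes higher in NST3pro nuclei, NST3pro 2 was the lowest of its group for 200 (75.5%, against 42.04% over all genes), and among the 349 genes higher in VND7pro nuclei VND7pro 6 was the lowest of its group for 284 (81.4%, against 36.2%). The call survived the omission of any 1 of the 6 libraries for 164 genes, 53 higher in NST3pro nuclei and 111 in VND7pro nuclei. Where a gene below lost its call without a library, that library is named. When both groups were fitted without the other 15 libraries, only VND1 and the snoRNA genes AT4G04205 and AT5G07095 passed, while 3267 of 25269 genes had an unadjusted p under 0.05.

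Marker lists of other stem tissues were summed to see what else the sorts held. The 12 phloem markers summed to 451 to 535 CPM in NST3pro and 386 to 653 CPM in VND7pro nuclei, and the 6 epidermis markers to 389 to 418 CPM in NST3pro and 252 to 487 CPM in VND7pro nuclei. Starch sheath (4 genes) and cambium (5 genes) markers overlapped between groups likewise, at 99.7 to 160.0 and 188 to 219 CPM in NST3pro against 138 to 199.99 and 191 to 326 CPM in VND7pro nuclei. Guard cell markers (7 genes) were the exception, with 91.0 to 179 CPM in NST3pro against 53.5 to 79.9 CPM in VND7pro nuclei, and no member passed edgeR's test. At an unadjusted p under 0.05 there were 2, DESeq2 called 1 (EPF1, lower in NST3pro nuclei) and limma with voom weights called 0. Of the 7, 2 were at 0 reads in NST3pro 2, 2 in NST3pro 3 and 1 in VND7pro 4. Photosynthesis genes leaned the same way: 39 of 40 had a positive log2 fold change (median 1.64), although RCA alone passed. Whether guard cell or other green nuclei in the NST3pro sort contributed to the genes higher there was not tested, and in sorted bulk nuclei fewer nuclei of a type and less RNA per nucleus cannot be told apart.

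The rule for named genes took, among called protein-coding genes of sufficient level whose groups did not overlap, 12 genes from either end of the fold change range. APR1 (AT4G04610), the APS reductase that commits sulfate to reduction, had 220.2, 40.3 and 232 CPM in NST3pro, against 10.05, 18.6 and 14.3 CPM in VND7pro nuclei. Every NST3pro library exceeded every VND7pro library, as the rule required of all these genes, with NST3pro 2 well below NST3pro 1 and 3 (3.53 ± 0.59, adjusted p 0.000738). IPMI1 (AT3G58990), a small subunit of isopropylmalate isomerase used in chain elongation of methionine for glucosinolates, had 111, 34 and 155 CPM in NST3pro, against 10.3, 6.77 and 5.99 CPM in VND7pro nuclei (3.69 ± 0.65, adjusted p 0.00128). The same library order appeared, and the call was lost without VND7pro 5 (adjusted p 0.0142). GRX480 (AT1G28480), a glutaredoxin that binds TGA transcription factors, had 50.6, 50.3 and 25.9 CPM in NST3pro, against 1.71, 2.96 and 4.61 CPM in VND7pro nuclei (3.76 ± 0.46, adjusted p 3.78e-05). A further thioredoxin superfamily gene, AT4G33040, had 30.6, 56.4 and 14.5 CPM in NST3pro, against 0.642, 3.81 and 3.45 CPM in VND7pro nuclei (3.72 ± 0.62, adjusted p 0.00082).

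MYB59 (AT5G59780), a MYB transcription factor, had 648, 52 and 492 CPM in NST3pro, against 27.4, 22.4 and 17.5 CPM in VND7pro nuclei (4.15 ± 0.57, adjusted p 0.00013). NST3pro 1 and 3 stood far above NST3pro 2, which still exceeded all VND7pro libraries. NAS1 (AT5G04950), a synthase of the metal chelator nicotianamine, had 109.7, 15.2 and 108 CPM in NST3pro, against 0.428, 2.12 and 14.3 CPM in VND7pro nuclei (3.76 ± 0.81, adjusted p 0.00704). Its lowest NST3pro and highest VND7pro libraries nearly met, and the call was lost without NST3pro 1, NST3pro 3, VND7pro 4 or VND7pro 5 (adjusted p up to 0.0433). SQP1 (AT5G24150), of the squalene epoxidase family, had 60.3, 29.8 and 60.9 CPM in NST3pro, against 2.78, 5.5 and 3.22 CPM in VND7pro nuclei (3.75 ± 0.59, adjusted p 0.000479), and AT5G24155 of the same family had 99, 25.4 and 53.4 CPM in NST3pro, against 0.428, 1.27 and 4.61 CPM in VND7pro nuclei (4.78 ± 0.68, adjusted p 0.000183). Because unique hits alone were counted, stretches that such relatives share are missing from both. The remaining 4 genes of this end, all called whichever library was left out, were AT4G31354 (uncharacterized), AT1G68945 (uncharacterized), AT1G07590 (tetratricopeptide repeat protein) and AT3G28270 (DUF677 membrane protein). AT4G31354 had 20.6, 26.3 and 27.3 CPM in NST3pro, against 0.214, 0 and 1.61 CPM in VND7pro nuclei, where 1 VND7pro library held no read and the median of the other 15 libraries was 20.3 CPM. Opposite-strand genes overlap 32.0% of AT4G31354 and 27.2% of AT1G68945, and since strand was ignored their reads cannot be told apart there.

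**Figure D1:**
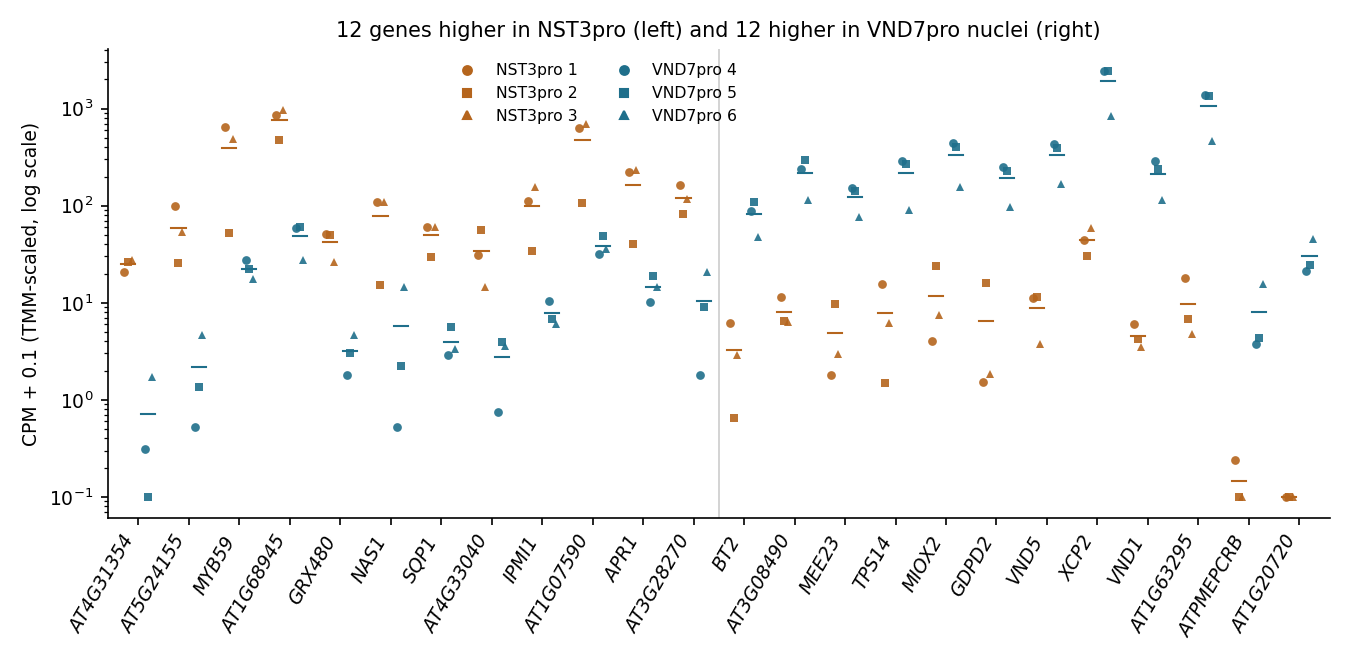
TMM-scaled CPM plus 0.1, on a log scale, of 12 genes from the NST3pro end (left) and 12 from the VND7pro end (right) of the fold change range, in the 3 NST3pro and 3 VND7pro libraries. Each point is 1 library and each bar a group mean. By the rule that chose these genes, NST3pro points lie above all VND7pro points on the left and below them on the right. AT1G20720 sits at 0 reads in the 3 NST3pro libraries.

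Genes at the VND7pro end included VND1, VND5 and XCP2, which are known from vessel differentiation. VND1 (AT2G18060), a NAC factor that can induce vessel identity, had 5.92, 4.15 and 3.41 CPM in NST3pro, against 290.0, 237 and 113 CPM in VND7pro nuclei (-5.57 ± 0.68, adjusted p 3.78e-05). VND5 (AT1G62700) had 11, 11.3 and 3.68 CPM in NST3pro, against 429, 394 and 166 CPM in VND7pro nuclei (-5.28 ± 0.51, adjusted p 2.88e-06). All 3 VND7pro libraries lay far above the NST3pro libraries for both genes. T5L1, the bHLH partner of LHW in vascular cell division, was the only other called member of 29 vessel and fiber regulators (1.94% of all genes were called). T5L1 had 27.2, 34 and 15.1 CPM in NST3pro, against 171, 208 and 88.9 CPM in VND7pro nuclei (-2.62 ± 0.45, adjusted p 0.00112), and its call was lost without NST3pro 3 (adjusted p 0.0119). XCP2 (AT1G20850), a cysteine protease that degrades the content of dying vessel elements, had 44.5, 30.4 and 58.4 CPM in NST3pro, against 2466, 2470.2 and 840.0 CPM in VND7pro nuclei (-5.43 ± 0.69, adjusted p 5.81e-05). VND7pro 6 was below VND7pro 4 and 5, still far above the NST3pro libraries.

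AT1G63295, a remorin family gene (plant proteins of plasma membrane domains), had 17.76, 6.63 and 4.64 CPM in NST3pro, against 1395, 1355 and 463 CPM in VND7pro nuclei (-6.78 ± 0.61, adjusted p 9.5e-07). After AT1G20720 and ATPMEPCRB, described below, it had the largest difference at this end. MIOX2 (AT2G19800), which oxidizes inositol to glucuronic acid, a precursor of wall sugars, had 3.95, 23.8 and 7.44 CPM in NST3pro, against 439.6, 398 and 154 CPM in VND7pro nuclei (-4.86 ± 0.60, adjusted p 3.78e-05). GDPD2 (AT5G41080), a glycerophosphodiester phosphodiesterase of lipid turnover, had 1.41, 16 and 1.75 CPM in NST3pro, against 249.8, 226 and 96.7 CPM in VND7pro nuclei (-5.02 ± 0.69, adjusted p 0.000132). NST3pro 2 was the highest NST3pro library for both genes, and without it and VND7pro 6 both differences were larger, at -6.31 for MIOX2 and -7.33 for GDPD2. TPS14 (AT1G61680), a terpene synthase, had 15.6, 1.38 and 6.04 CPM in NST3pro, against 288, 268 and 89.8 CPM in VND7pro nuclei (-4.77 ± 0.69, adjusted p 0.000209). MEE23 (AT2G34790), of the berberine bridge enzyme family, had 1.69, 9.67 and 2.89 CPM in NST3pro, against 151, 143 and 75.5 CPM in VND7pro nuclei (-4.77 ± 0.63, adjusted p 8.37e-05). BT2 (AT3G48360), a BTB and TAZ domain protein of nitrogen and sugar signaling, had 6.06, 0.553 and 2.8 CPM in NST3pro, against 88.6, 108 and 47.2 CPM in VND7pro nuclei (-4.64 ± 0.69, adjusted p 0.000249). In all of these, and in the unstudied AT3G08490 (-4.74 ± 0.58, adjusted p 3.78e-05), groups were separate, as the rule required, and the call held without any 1 library.

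The helicase gene AT1G20720, of the RAD3-like DNA-binding family, was at 0 reads in all 3 NST3pro libraries and had 21.2, 24.1 and 45.1 CPM in VND7pro 4, 5 and 6, which was at least 228-fold higher against a floor of 3 reads over the NST3pro group. The 15 libraries of the other tissues held 9.17 to 45.7 CPM, so NST3pro libraries were the exception among 7 tissues, each from its own transgenic plants. Whether the absence of reads belongs to the plant line or to the cell type cannot be told apart. Of the 614 called genes, 34 had no read in any NST3pro library and 0 had none in any VND7pro library. For 16 of these 34 genes, AT1G20720 included, every library of the other 5 tissues had reads. ATPMEPCRB (AT4G02330), a pectin methylesterase, had 1 read in the NST3pro group, in NST3pro 1, and 3.64, 4.23 and 15.7 CPM in VND7pro 4, 5 and 6. The VND7pro to NST3pro ratio was 185 (95% counting interval 33.1 to 7294). This call was lost without NST3pro 1, NST3pro 2, NST3pro 3, VND7pro 5 or VND7pro 6 (adjusted p up to 0.0446), and also without NST3pro 2 and VND7pro 6 together (adjusted p 0.0424). The level required by the rule was an average over all 21 libraries, which ATPMEPCRB met although its mean was 0.047 CPM in NST3pro and 7.84 CPM in VND7pro nuclei. It was most abundant in epidermis (LTP1pro) libraries, at 267 to 816 CPM.

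Functions were then read from 25 gene lists covering nutrient uptake, metabolism, hormones, cell death, transport, the cell wall and stress. They held 706 genes, 703 of them tested. Of those, 50 (7.11%, against 1.94% of all genes) were called: 21 were higher in NST3pro nuclei and 29 in VND7pro nuclei. Called members came from 19 lists, and 16 of the 50 calls survived the omission of any 1 library. Lists were chosen with results of these data known, so this share describes the lists and is no independent support.

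**Figure D2:**
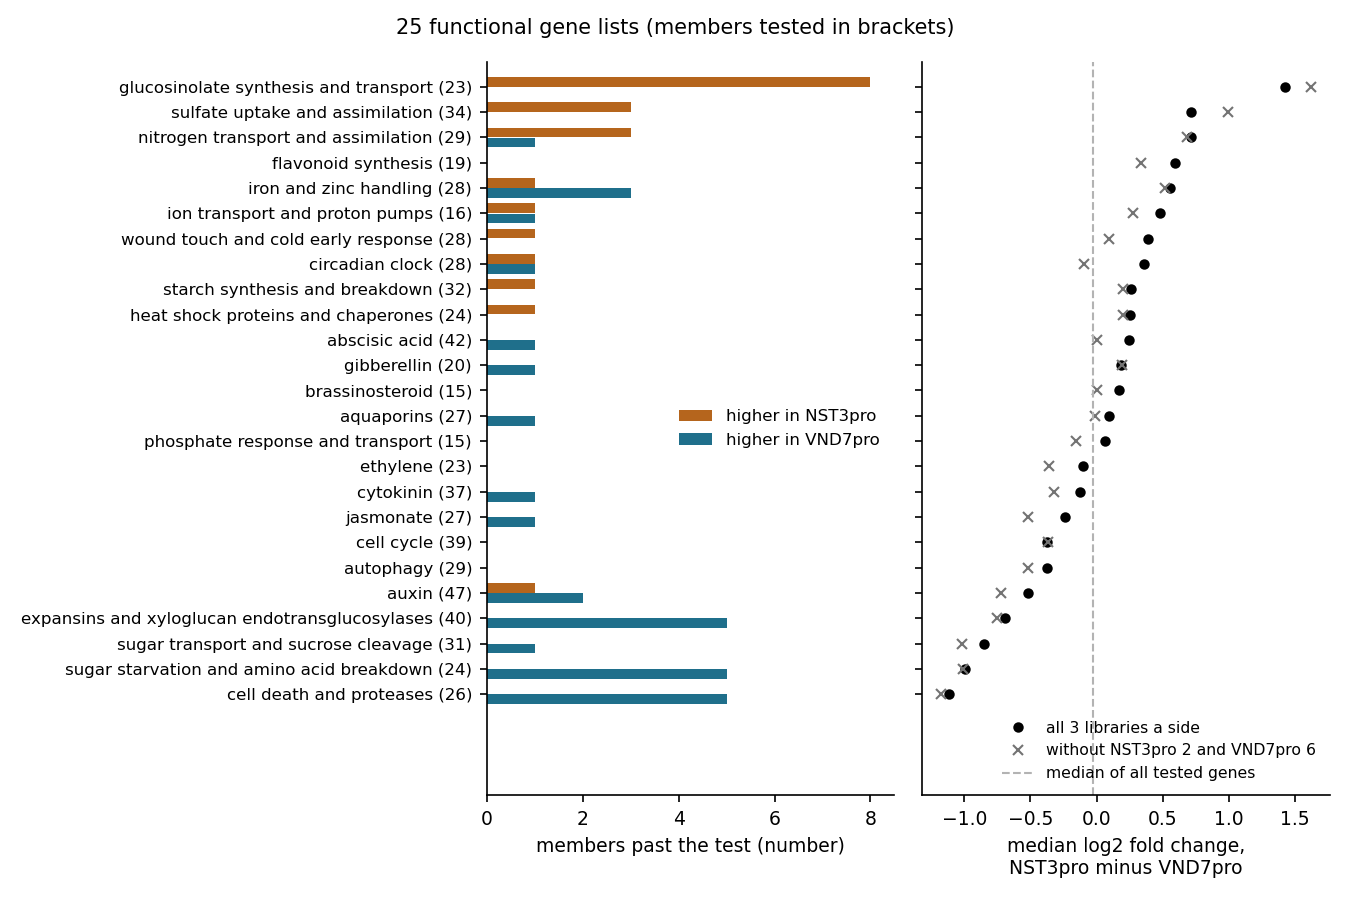
Number of members past the test in each direction (left) and median log2 fold change, NST3pro minus VND7pro (right), for 25 functional lists, with the number of members tested in brackets. Filled points use all 3 libraries a side and crosses leave out NST3pro 2 and VND7pro 6; glucosinolate synthesis had 8 members higher in NST3pro (median 1.42) and cell death 5 higher in VND7pro nuclei (median -1.12), while the dashed line marks the median of all tested genes.

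Glucosinolates are sulfur-rich defense compounds of Brassicaceae, built from amino acids, and their synthesis genes were higher in NST3pro nuclei more often than those of any other list. Of 23 tested members, 8 were higher in NST3pro nuclei and 0 in VND7pro nuclei (0.839% and 1.11% of all genes). Of the 23, 18 had a positive log2 fold change, and the list median was 1.42. The regulator of methionine-derived glucosinolates, MYB28, had 191, 64.4 and 205 CPM in NST3pro, against 20.3, 20.3 and 26 CPM in VND7pro nuclei (2.79 ± 0.50, adjusted p 0.00152). BCAT4, the aminotransferase that starts methionine chain elongation, had 171, 37.3 and 145 CPM in NST3pro, against 10.7, 16.1 and 28.6 CPM in VND7pro nuclei (2.68 ± 0.50, adjusted p 0.0025). MAM1, which carries out the condensation step of elongation, had 490.3, 47.3 and 400.3 CPM in NST3pro, against 55.6, 45.7 and 41.2 CPM in VND7pro nuclei (2.72 ± 0.51, adjusted p 0.00241). NST3pro 2 lay between the VND7pro values for MAM1, so this was a called gene with overlapping groups.

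Genes of later steps were called as well. CYP79F1, which converts elongated methionine to aldoximes, had 429.8, 73.2 and 449 CPM in NST3pro, against 65.5, 52.9 and 56.2 CPM in VND7pro nuclei (2.45 ± 0.45, adjusted p 0.00199). The sulfotransferases of the last core step, SOT17 and SOT18, had separate groups. SOT17 had 137, 58 and 119 CPM in NST3pro, against 16.9, 14.8 and 18 CPM in VND7pro nuclei (2.66 ± 0.39, adjusted p 0.000223), and SOT18 had 94.2, 34 and 88.4 CPM in NST3pro, against 18.6, 13.5 and 13.8 CPM in VND7pro nuclei (2.23 ± 0.44, adjusted p 0.00342). MYB29 (2.17 ± 0.43, adjusted p 0.00351) and CYP83B1 (1.81 ± 0.40, adjusted p 0.00782) were the other called members. In the study, CYP83B1 reads were over-represented in microdissected phloem cap of the vascular bundles, where a MYB29 promoter reporter was active too. Glucosinolate synthesis was an over-represented term among its phloem cap genes. The marker lists held no phloem cap genes, and a part of phloem cap nuclei in these differences was not tested. Of the 15 uncalled members, MAM3 had the lowest log2 fold change (-2.19 ± 1.05, adjusted p 0.228), and the myrosinases TGG1 (-0.36 ± 0.63, adjusted p 0.807) and TGG2 (-0.13 ± 0.61, adjusted p 0.938), which break glucosinolates down, were near 0. SOT17 alone kept its call whichever library was left out. The others lost it without VND7pro 4 or VND7pro 5, and all except MYB28 also without NST3pro 1 or NST3pro 3, with adjusted p up to 0.04; MAM1, SOT18, MYB29 and CYP83B1 lost it without VND7pro 6 as well. Without NST3pro 2 and VND7pro 6 together, 8 members were again higher in NST3pro nuclei, 7 of them shared. CYP79F1 and CYP79F2 as well as SOT17 and SOT18 are close copies, and reads matching several copies had been dropped.

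Sulfate assimilation, which feeds this pathway, leaned the same way, with 27 positive log2 fold changes among 34 members and a median of 0.72. In VND7pro nuclei 0 members were higher and in NST3pro nuclei 3 were (1.11% and 0.839% of all genes). Beside APR1, these were APS4, an ATP sulfurylase, and SIR, sulfite reductase. APS4 had 205, 117 and 237 CPM in NST3pro, against 72.1, 53.3 and 26.7 CPM in VND7pro nuclei (1.88 ± 0.42, adjusted p 0.00907). SIR had 240.2, 163 and 292 CPM in NST3pro, against 46.6, 89.7 and 56.7 CPM in VND7pro nuclei (1.86 ± 0.39, adjusted p 0.00525). Groups were separate for both, but each lost its call without NST3pro 1, NST3pro 3, VND7pro 4, VND7pro 5 or VND7pro 6 (adjusted p up to 0.0524 for APS4 and 0.038 for SIR) and without NST3pro 2 and VND7pro 6 together (0.0262 and 0.0146). APK1 and APK2, the kinases that make active sulfate for sulfotransferases, had log2 fold changes of 2.07 ± 0.49, adjusted p 0.0126 and 2.03 ± 0.55, adjusted p 0.028, which did not pass. The sulfate transporters ranged from -1.68 for SULTR1;3 to 1.3 for SULTR2;1, and none passed.

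Nitrogen genes showed a similar lean (29 tested, median 0.71), with 3 higher in NST3pro and 1 in VND7pro nuclei (0.839% and 1.11% of all genes). NIA2, the main nitrate reductase, had 339, 160.3 and 404 CPM in NST3pro, against 43.4, 45.3 and 21.6 CPM in VND7pro nuclei (3.04 ± 0.48, adjusted p 0.000426). The lowest NST3pro library was far above the highest VND7pro library. AAP6, an amino acid permease of vascular tissue, had 82.6, 67.4 and 82.6 CPM in NST3pro, against 23.3, 19.5 and 17.5 CPM in VND7pro nuclei (1.95 ± 0.33, adjusted p 0.000803), with little spread within groups. GLN2, plastid glutamine synthetase, had 119, 76.8 and 94.8 CPM in NST3pro, against 38.5, 36.8 and 19.6 CPM in VND7pro nuclei (1.62 ± 0.35, adjusted p 0.00695). GDH2, a glutamate dehydrogenase that releases ammonium from glutamate, had 59.6, 37.9 and 62.8 CPM in NST3pro, against 207, 256 and 108 CPM in VND7pro nuclei (-1.83 ± 0.40, adjusted p 0.00774) and so went the other way. NIA2 and AAP6 were called whichever library was left out. GLN2 was not called without NST3pro 1, NST3pro 3, VND7pro 4, VND7pro 5 or VND7pro 6 (adjusted p up to 0.0413) or without NST3pro 2 and VND7pro 6 together (0.0285), and GDH2 was not called without NST3pro 1, NST3pro 2, NST3pro 3, VND7pro 4 or VND7pro 5 (up to 0.0449).

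A pair of potassium channels was called in opposite directions. AKT2, a weakly rectifying channel of phloem and other tissues, had 421, 311 and 324 CPM in NST3pro, against 73.2, 91.8 and 50.7 CPM in VND7pro nuclei (2.29 ± 0.35, adjusted p 0.00033). AKT1, an inward channel known from root uptake, had 92.8, 47.3 and 73.3 CPM in NST3pro, against 388, 409 and 181 CPM in VND7pro nuclei (-2.20 ± 0.37, adjusted p 0.000885). Both had separate groups, held without any 1 library, and were the called members among 16 ion channels and pumps (1.94% of all genes were called). Among 32 starch genes 1 was called, where 1.94% of all genes were. This was GBSS1, which makes amylose and had 87.1, 64.9 and 90.0 CPM in NST3pro, against 20.5, 13.1 and 9.67 CPM in VND7pro nuclei (2.48 ± 0.41, adjusted p 0.000726). The list median was 0.26, and PGM (1.71 ± 0.73, adjusted p 0.17) and AMY1 (-1.64 ± 0.74, adjusted p 0.196) did not pass. PP2-A1, a phloem protein, was the called member among the 12 phloem markers (1.94% of all genes were called). It had 83.2, 32.9 and 115 CPM in NST3pro, against 12.2, 22.4 and 8.06 CPM in VND7pro nuclei (2.47 ± 0.45, adjusted p 0.00181). The PP2-A1 call was lost without NST3pro 3, VND7pro 4 or VND7pro 6 (adjusted p up to 0.0153). The 11 other phloem markers did not pass, from -0.94 for SUC2 to 1.80 for SMXL4, and their part in the AKT2 and AAP6 differences was not tested.

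**Figure D3:**
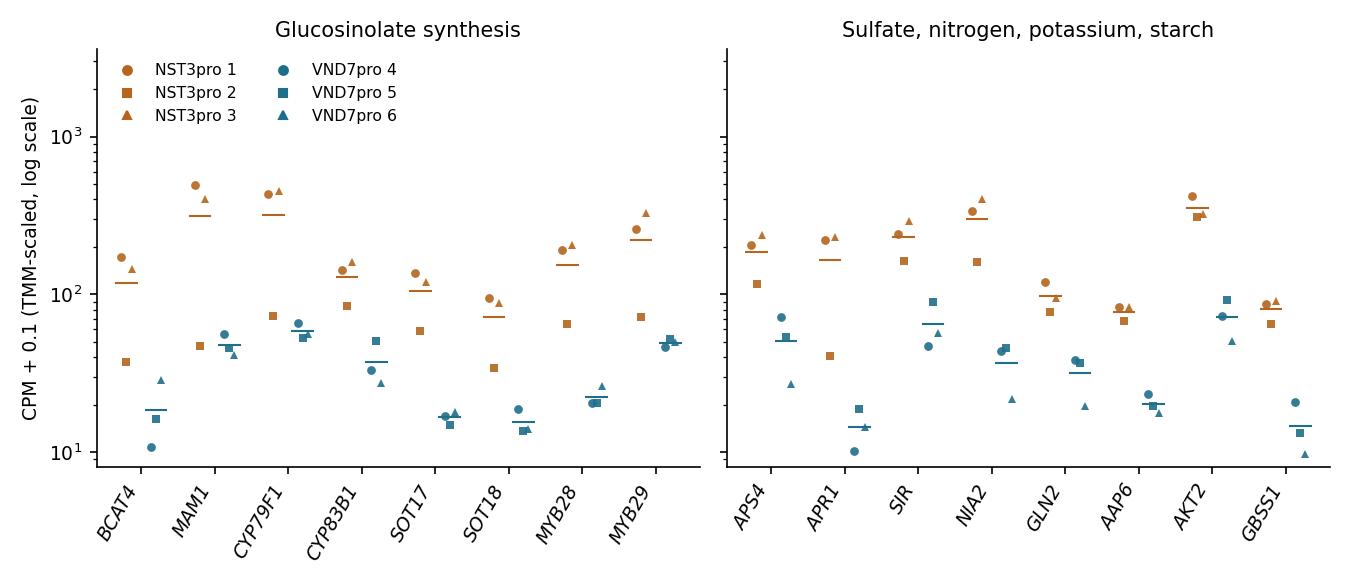
TMM-scaled CPM plus 0.1, on a log scale, of the 8 called glucosinolate genes (left) and of called genes of sulfate, nitrogen, potassium and starch metabolism (right) in each NST3pro and VND7pro library, with bars at group means. NST3pro 2 lies below NST3pro 1 and 3 for each gene shown, and for MAM1 it falls among the VND7pro libraries (47.3 CPM against 55.6, 45.7 and 41.2 CPM).

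Of 28 genes of iron and zinc handling, 1 was higher in NST3pro nuclei (NAS1, above) and 3 in VND7pro nuclei, while 24 did not pass. Over all genes, 0.839% were higher in NST3pro and 1.11% in VND7pro nuclei. The list median was 0.56, with 19 positive and 9 negative log2 fold changes. FER3, a ferritin that stores iron in plastids, had 18.8, 3.87 and 4.11 CPM in NST3pro, against 162, 185 and 67.3 CPM in VND7pro nuclei (-3.94 ± 0.61, adjusted p 0.000399). NRAMP3, which exports metals from the vacuole, had 2.4, 1.66 and 0.7 CPM in NST3pro, against 16.5, 20.3 and 9.67 CPM in VND7pro nuclei (-3.30 ± 0.66, adjusted p 0.00364). YSL2, a transporter of metal and nicotianamine complexes, had 14.2, 0.829 and 21.4 CPM in NST3pro, against 84.7, 109 and 49.5 CPM in VND7pro nuclei (-2.70 ± 0.60, adjusted p 0.00828). Groups were separate for all 3 genes, and FER3 was called whichever library was left out. NRAMP3 was not called without NST3pro 3, VND7pro 4 or VND7pro 5 (adjusted p up to 0.0284), nor YSL2 without NST3pro 1, VND7pro 4 or VND7pro 5 (up to 0.0432). The iron deficiency regulators of the bHLH group, from 0.48 for BHLH101 to 1.27 for BHLH39, did not pass.

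Genes of sugar starvation and of branched-chain amino acid breakdown are induced by plant cells when carbon is short. Of 24 members 0 were higher in NST3pro and 5 in VND7pro nuclei (0.839% and 1.11% of all genes), and 19 did not pass. Of the 24, 21 had a negative log2 fold change and the median was -0.99. DIN1, a dark-inducible gene of the rhodanese family, had 2.4, 0.276 and 1.05 CPM in NST3pro, against 78.7, 105 and 39.6 CPM in VND7pro nuclei (-5.83 ± 0.87, adjusted p 0.000272). DIN10, of the raffinose synthase family, had 170.3, 34.3 and 116 CPM in NST3pro, against 2986, 2968 and 1026 CPM in VND7pro nuclei (-4.44 ± 0.54, adjusted p 3.78e-05). DIN10 was thus among the most abundant transcripts named here in VND7pro nuclei, and both calls held without any 1 library. The study also made promoter reporters for both genes, naming DIN1 as SEN1. Its DIN10 reporter was mainly active in tissues other than the predicted one, and its SEN1 reporter was barely detectable in any tissue. The study points out that such promoter regions may lack regulatory elements.

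MCCA and MCCB, both subunits of methylcrotonyl-CoA carboxylase, were called. MCCA had 49.2, 6.08 and 81.9 CPM in NST3pro, against 444, 429.6 and 173 CPM in VND7pro nuclei (-2.92 ± 0.58, adjusted p 0.00389). MCCB had 44, 5.53 and 24.3 CPM in NST3pro, against 178, 240.0 and 83.1 CPM in VND7pro nuclei (-2.75 ± 0.52, adjusted p 0.00252). DIN3, the acyltransferase subunit of the branched-chain keto acid dehydrogenase, had 33.1, 16.9 and 12.3 CPM in NST3pro, against 116, 135 and 87.8 CPM in VND7pro nuclei (-2.44 ± 0.42, adjusted p 0.0011). NST3pro 2 was the lowest library for MCCA and MCCB, and no groups overlapped. MCCA lost its call without NST3pro 1, VND7pro 4 or VND7pro 5 (adjusted p up to 0.0189), MCCB without NST3pro 3 or VND7pro 5 (up to 0.0194) and DIN3 without NST3pro 3 (0.0115). IVD, isovaleryl-CoA dehydrogenase of the same pathway, did not pass (-2.58 ± 0.64, adjusted p 0.0179). Without NST3pro 2 and VND7pro 6 the list had 8 members higher in VND7pro nuclei, including all 5.

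Sugar transporters leaned towards VND7pro nuclei too (31 tested, median -0.85, 24 negative), but ERDL6 alone was called (1.94% of all genes were called). ERDL6, which exports glucose from the vacuole, had 36.1, 13 and 50.7 CPM in NST3pro, against 158, 150.3 and 76.9 CPM in VND7pro nuclei (-1.94 ± 0.44, adjusted p 0.00957) and lost its call without NST3pro 1, NST3pro 2, NST3pro 3, VND7pro 4 or VND7pro 5 (adjusted p up to 0.039). The sucrose exporter SWEET11 had 71.5, 24.6 and 118 CPM in NST3pro, against 9.63, 7.2 and 6.91 CPM in VND7pro nuclei (3.17 ± 0.74, adjusted p 0.0116), which narrowly missed the threshold in the other direction despite separate groups. STP1, a hexose importer, had 591, 116 and 574 CPM in NST3pro, against 1848, 1776 and 703 CPM in VND7pro nuclei (-1.75 ± 0.59, adjusted p 0.0771). Autophagy genes, which recycle cell content, gave no call among 29 (median -0.37). ATG8B, a ubiquitin-like autophagosome protein, had 252, 75.7 and 281 CPM in NST3pro, against 98.2, 94.4 and 44.9 CPM in VND7pro nuclei (1.36 ± 0.41, adjusted p 0.0454) and the kinase ATG1A had 19.2, 31.5 and 19 CPM in NST3pro, against 49.6, 73.2 and 42.4 CPM in VND7pro nuclei (-1.25 ± 0.39, adjusted p 0.0522).

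Cell death genes were higher in VND7pro nuclei in 5 of 26 cases and in NST3pro nuclei in 0 cases (1.11% and 0.839% of all genes). The list median was -1.12. Beside XCP2 (above), XCP1, its close relative, had 8.04, 9.4 and 5.87 CPM in NST3pro, against 136, 141 and 67.5 CPM in VND7pro nuclei (-3.90 ± 0.50, adjusted p 6.78e-05). XSP1, a serine protease of xylem, had 43.7, 5.53 and 17.9 CPM in NST3pro, against 405, 449.9 and 193 CPM in VND7pro nuclei (-3.95 ± 0.57, adjusted p 0.000212). BFN1, a nuclease of senescence and vessel death, had 5.5, 32.1 and 9.54 CPM in NST3pro, against 138, 135 and 59.7 CPM in VND7pro nuclei (-2.84 ± 0.59, adjusted p 0.00499). ACL5, the thermospermine synthase that delays vessel maturation, had 41.7, 55.8 and 48.2 CPM in NST3pro, against 415, 394 and 165 CPM in VND7pro nuclei (-2.74 ± 0.57, adjusted p 0.00488). No groups overlapped. Both XCP genes and XSP1 held without any 1 library, whereas BFN1 and ACL5 were not called without NST3pro 1, NST3pro 3, VND7pro 4 or VND7pro 5 (adjusted p up to 0.0362 and 0.0279). The metacaspases MC9 (0.03 ± 0.82, adjusted p 0.989), MC1 (0.30 ± 0.49, adjusted p 0.791) and MC4 (0.25 ± 0.45, adjusted p 0.816) did not pass, and GAMMA-VPE, a vacuolar processing enzyme, leaned towards NST3pro nuclei without passing (1.86 ± 0.47, adjusted p 0.0187).

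**Figure D4:**
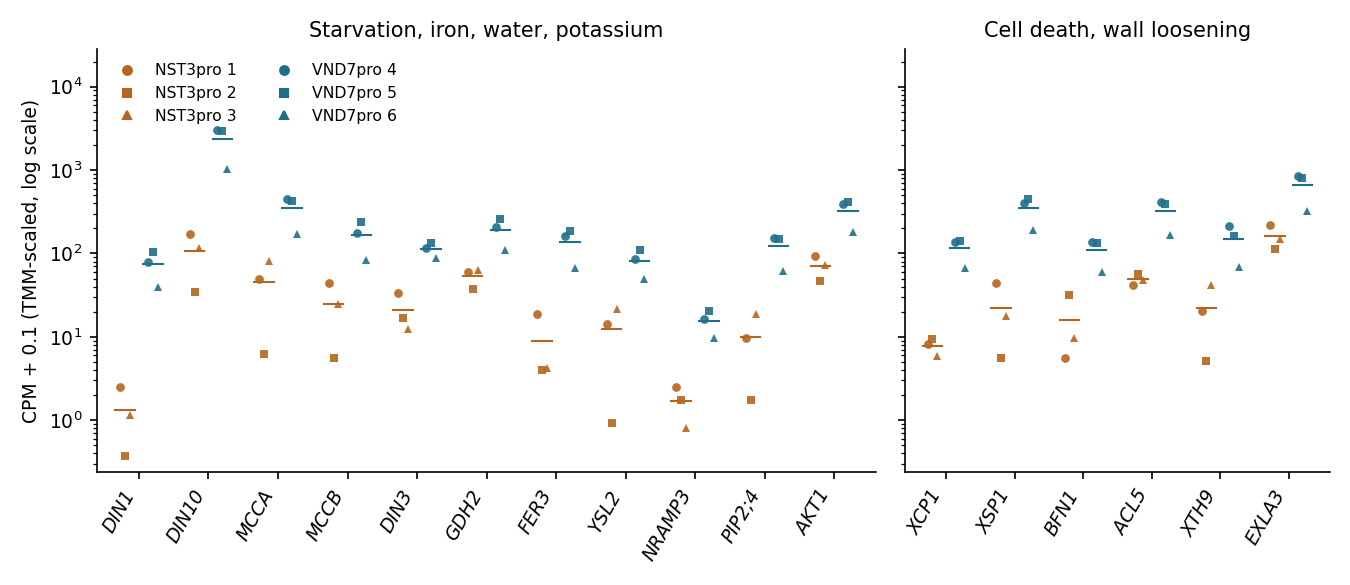
TMM-scaled CPM plus 0.1, on a log scale, of called genes of sugar starvation, nitrogen release, iron handling, water and potassium transport (left) and of cell death and wall loosening (right) in each NST3pro and VND7pro library, with bars at group means. All VND7pro libraries lie above all NST3pro libraries for each gene shown; DIN10 and DIN1 have the widest gaps on the left.

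Wall-loosening genes, the expansins and xyloglucan endotransglucosylases of growing primary walls, were higher in VND7pro nuclei in 5 of 40 cases (against 1.11% of all genes) and in NST3pro nuclei in 0 cases (34 negative, median -0.70). XTH9 had 20.2, 4.97 and 41.9 CPM in NST3pro, against 213, 163 and 68.4 CPM in VND7pro nuclei (-2.71 ± 0.60, adjusted p 0.0085). EXLA3, an expansin-like protein, had 221, 114 and 149 CPM in NST3pro, against 843, 809.7 and 327 CPM in VND7pro nuclei (-2.03 ± 0.45, adjusted p 0.00787). Both had separate groups. XTH8 had 0.282, 0 and 0.7 CPM in NST3pro, against 11.1, 9.31 and 5.53 CPM in VND7pro nuclei, XTH18 had 8.04, 4.15 and 5.52 CPM in NST3pro, against 41.7, 34.7 and 15.9 CPM in VND7pro nuclei and EXPA5 had 1.41, 4.15 and 3.15 CPM in NST3pro, against 13.9, 30.1 and 9.44 CPM in VND7pro nuclei. Each of the 5 had separate groups but depended on single libraries: XTH8 and EXLA3 were not called without NST3pro 1, 2 or 3 or VND7pro 4 or 5 (adjusted p up to 0.031 and 0.045), XTH9 without NST3pro 1, NST3pro 2, VND7pro 4 or VND7pro 5 (0.0388), EXPA5 without NST3pro 1, NST3pro 3, VND7pro 4 or VND7pro 5 (0.0664) and XTH18 without NST3pro 3, VND7pro 4 or VND7pro 5 (0.0238). XTH8 also failed without NST3pro 2 and VND7pro 6 together (adjusted p 0.011).

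Water channels gave 1 call among 27 (1.94% of all genes were called). The plasma membrane aquaporin PIP2;4 had 9.59, 1.66 and 18.5 CPM in NST3pro, against 153, 150.3 and 62.2 CPM in VND7pro nuclei (-3.58 ± 0.60, adjusted p 0.000885), with separate groups and a call that held without any 1 library. TIP2;2, a tonoplast aquaporin, had 41.7, 11.6 and 91.1 CPM in NST3pro, against 13, 11.4 and 14.7 CPM in VND7pro nuclei (1.88 ± 0.53, adjusted p 0.0353) and the boric acid channel NIP5;1 had 39.2, 19.3 and 53.7 CPM in NST3pro, against 2.57, 11 and 19.1 CPM in VND7pro nuclei (1.79 ± 0.54, adjusted p 0.0495), neither past the test.

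The 7 hormone lists held 7 called genes among 211 tested (3.32%, against 1.94% of all genes), 1 higher in NST3pro and 6 in VND7pro nuclei. Gibberellin inactivation was represented by GA2OX6, a gibberellin 2-oxidase, with 12.1, 6.91 and 7.53 CPM in NST3pro, against 74.9, 89.3 and 45.8 CPM in VND7pro nuclei (-2.97 ± 0.44, adjusted p 0.000236), separate groups and a call that held without any 1 library. CKX4, a cytokinin oxidase, had 1 read in the NST3pro group, in NST3pro 1, and 12, 2.96 and 4.84 CPM in VND7pro 4, 5 and 6, a VND7pro to NST3pro ratio of 163 (95% counting interval 29.3 to 6449.6). The 15 libraries of other tissues held 1.03 to 15.3 CPM (median 7.81), so NST3pro and not VND7pro libraries stood apart. The CKX4 call was lost without NST3pro 3 or VND7pro 4 (adjusted p up to 0.0259). CYP707A1, which degrades abscisic acid, had 27.9, 46.7 and 13.6 CPM in NST3pro, against 166, 172 and 79.5 CPM in VND7pro nuclei (-2.26 ± 0.44, adjusted p 0.00342). JAZ2, a repressor of jasmonate signaling, had 65.7, 62.5 and 74.2 CPM in NST3pro, against 487, 408 and 165 CPM in VND7pro nuclei (-2.39 ± 0.43, adjusted p 0.00151). Both had separate groups, and CYP707A1 was not called without NST3pro 1, NST3pro 3, VND7pro 4 or VND7pro 5 (adjusted p up to 0.0284), nor JAZ2 without NST3pro 1 or VND7pro 4 (up to 0.0121). Called members were 1 of 20 gibberellin, 1 of 37 cytokinin, 1 of 42 abscisic acid and 1 of 27 jasmonate genes, each higher in VND7pro nuclei (1.11% of all genes were called in this direction).

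Auxin genes numbered 47 (median -0.52), with 1 higher in NST3pro nuclei and 2 in VND7pro nuclei (0.839% and 1.11% of all genes). PIN6, an auxin carrier, had 14.4, 9.67 and 19.3 CPM in NST3pro, against 76.4, 90.16 and 53.9 CPM in VND7pro nuclei (-2.33 ± 0.42, adjusted p 0.00147). IAA1, a repressor of the auxin response that auxin itself induces, had 20.2, 6.91 and 23.64 CPM in NST3pro, against 155, 173 and 60.6 CPM in VND7pro nuclei (-2.92 ± 0.57, adjusted p 0.00338). ARF8, an auxin response factor, had 105, 62.2 and 91.2 CPM in NST3pro, against 25.9, 30.9 and 21 CPM in VND7pro nuclei (1.74 ± 0.35, adjusted p 0.0044) and so was the member higher in NST3pro nuclei. Groups were separate in each case. PIN6 lost its call without VND7pro 5 (adjusted p 0.0119), IAA1 without NST3pro 1, NST3pro 2, NST3pro 3, VND7pro 4 or VND7pro 5 (up to 0.0206) and ARF8 without NST3pro 1, NST3pro 3, VND7pro 4, VND7pro 5 or VND7pro 6 (up to 0.0229).

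Uncalled hormone genes are given as values. The cytokinin receptor AHK2 had 24.8, 3.04 and 45 CPM in NST3pro, against 97.5, 106 and 52.5 CPM in VND7pro nuclei (-1.79 ± 0.53, adjusted p 0.0453), and the response regulator ARR10 had 28.3, 24.3 and 25.7 CPM in NST3pro, against 7.7, 8.47 and 8.75 CPM in VND7pro nuclei (1.65 ± 0.38, adjusted p 0.0105), just short of the threshold with separate groups. NCED9 and NCED4, carotenoid dioxygenases, had log2 fold changes of -2.90 ± 0.97, adjusted p 0.074 and 2.23 ± 0.54, adjusted p 0.0153. VSP2, a jasmonate-inducible storage protein, had 201, 29 and 240.4 CPM in NST3pro, against 46.2, 55.4 and 29.9 CPM in VND7pro nuclei (1.84 ± 0.50, adjusted p 0.0296), and JAZ8 had 16.2, 43.1 and 29.7 CPM in NST3pro, against 117, 107 and 44.7 CPM in VND7pro nuclei (-1.60 ± 0.40, adjusted p 0.018). GA3OX1 (1.00 ± 0.76, adjusted p 0.497) and GA2OX8 (1.23 ± 0.89, adjusted p 0.471) overlapped between groups. Of 23 ethylene and 15 brassinosteroid genes, 0 passed edgeR's test, and at an unadjusted p under 0.05 there were 6 and 7, while DESeq2 called 1 and 5 and limma with voom weights 0 and 0. Examples are ACS4 (-2.91 ± 1.14, adjusted p 0.132) and EBF1 (1.21 ± 0.44, adjusted p 0.0997) of ethylene, and BES1 (1.72 ± 0.43, adjusted p 0.0181) and ROT3 (1.57 ± 0.46, adjusted p 0.0417) of brassinosteroid.

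The circadian clock gave 1 call in each direction among 28 genes (0.839% of all genes were higher in NST3pro and 1.11% in VND7pro nuclei). RVE8, a MYB-like factor that activates evening genes, had 174, 54.2 and 129.6 CPM in NST3pro, against 22, 19 and 10.6 CPM in VND7pro nuclei (2.79 ± 0.46, adjusted p 0.000769). TOC1, an evening-phased repressor of morning genes, had 33.6, 36.2 and 23.64 CPM in NST3pro, against 343, 246 and 86.1 CPM in VND7pro nuclei (-2.86 ± 0.49, adjusted p 0.00106). Groups did not overlap, the RVE8 call held without any 1 library, and the TOC1 call was lost without NST3pro 3 (adjusted p 0.0115). The morning genes CCA1 and LHY did not pass. CCA1 had 534, 463 and 539 CPM in NST3pro, against 284, 281 and 118 CPM in VND7pro nuclei (1.17 ± 0.41, adjusted p 0.0861). LHY had 348, 369.7 and 298 CPM in NST3pro, against 208, 201 and 99.7 CPM in VND7pro nuclei (1.00 ± 0.41, adjusted p 0.154). All NST3pro libraries were above all VND7pro libraries for both. Hours of harvest are not given in the sources used here, so harvest time and cell type cannot be told apart for these genes. The same limit holds for other genes here that vary with time of day or light, such as the dark-inducible DIN1.

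The stress and growth lists had HSP90.1 and BAP1 as called genes. HSP90.1, a heat-inducible chaperone, had 119, 65.8 and 72.7 CPM in NST3pro, against 40.4, 14 and 23 CPM in VND7pro nuclei (1.72 ± 0.35, adjusted p 0.00474). BAP1, a membrane-associated negative regulator of defense, had 798, 219 and 899 CPM in NST3pro, against 123, 163 and 91.7 CPM in VND7pro nuclei (2.34 ± 0.47, adjusted p 0.00425). They were the single called members of 24 chaperone genes and 28 early response genes, where 0.839% of all genes were higher in NST3pro nuclei. Both had separate groups. HSP90.1 was not called without NST3pro 1, NST3pro 3, VND7pro 5 or VND7pro 6 (adjusted p up to 0.0374) or without NST3pro 2 and VND7pro 6 together (0.0178), nor BAP1 without NST3pro 1, NST3pro 3, VND7pro 4, VND7pro 5 or VND7pro 6 (up to 0.0264). HSC70-1 (1.66 ± 0.62, adjusted p 0.112), HSFA2 (1.59 ± 0.78, adjusted p 0.241), ZAT10 (1.91 ± 0.50, adjusted p 0.0239) and DREB2A (-1.70 ± 0.45, adjusted p 0.0241) did not pass. Among 39 cell cycle, 19 flavonoid and 15 phosphate genes, as among the 29 autophagy genes, 0 passed edgeR's test, with 5, 2, 4 and 4 at an unadjusted p under 0.05. In the same order DESeq2 called 1, 2, 1 and 2 of them, and limma with voom weights called 0 in each list. The leading values were CCS52A1 (-1.54 ± 0.50, adjusted p 0.063) and E2FA (-1.46 ± 1.03, adjusted p 0.461) of the cell cycle, UGT78D1 (1.88 ± 0.48, adjusted p 0.0219) of flavonoids and PHT1;4 (1.42 ± 0.85, adjusted p 0.361) of phosphate. For CHS, with 3.24, 78.8 and 0 CPM in NST3pro, against 1.07, 8.04 and 14.7 CPM in VND7pro nuclei, and PHO1;H1, with 25.4, 108 and 20.5 CPM in NST3pro, against 16.3, 16.5 and 39.2 CPM in VND7pro nuclei, the high NST3pro mean rested on NST3pro 2 alone.

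Outside protein-coding genes, small nucleolar RNA (snoRNA) genes stood out. SnoRNAs guide chemical modification of ribosomal RNA, and those of the C/D class carry a C box (TGATGA) near the start and a D box (CTGA) near the end. Of 116 snoRNA genes tested, 18 (15.5%, against 1.11% of all genes in this direction) were higher in VND7pro nuclei and 0 were higher in NST3pro nuclei. The class was singled out after its values were seen. Its median log2 fold change was -2.10, with 100 negative and 16 positive values, and the called genes ranged from -6.48 to -3.52. Summed over the class, snoRNA genes had 433, 505 and 427 CPM in NST3pro 1, 2 and 3, against 3643, 6341 and 2716 CPM in VND7pro 4, 5 and 6, with no overlap.

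Other tissues varied as widely. The 15 further libraries ranged from 291 to 5266 CPM, with 3389, 1454 and 1188 CPM in SCRpro 16, 17 and 18 and 5266, 1256 and 1577 CPM in LTP1pro 19, 20 and 21, so that single libraries of a tissue differed severalfold. In the study's read statistics, trimming left a smaller share of reads in every VND7pro than in every NST3pro library. SCRpro 16 and LTP1pro 19 had the smallest share of their tissue and the highest sum. VND7pro 5 had the highest VND7pro sum without the smallest share. SMXL5pro 10 and 11 had shares within the VND7pro range at sums of 870 and 910 CPM. Whether trimming bears on these sums was not tested. Without NST3pro 2 and VND7pro 6, 17 snoRNA genes were higher in VND7pro and 0 in NST3pro nuclei. Leaving out 1 library left 8 (without NST3pro 3) to 18 (without VND7pro 6) calls, with 9 without NST3pro 1 or VND7pro 5 and 12 without VND7pro 4. Since cDNA was primed from poly(A), and gene counts do not separate mature snoRNAs from longer or intronic precursors, what kind of molecule was read was not tested.

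Sequences are shown for the snoRNA genes with the largest difference or the highest level, together with the neighbour of AT4G04205. They were read from the RefSeq TAIR10.1 assembly (the counts used TAIR10 with Araport11), 5′ to 3′ on the gene's strand, with a C box TGATGA and a later D box CTGA in capitals where a search of the gene's own strand found both. AT4G04205 lies at chr4:1122744-1122852 (+), with AT4G02555 just before it at chr4:1122603-1122678 (+), AT3G01316 at chr3:104835-104909 (-), AT4G03295 at chr4:1445879-1445954 (-) and AT5G07095 at chr5:19624548-19624687 (+).
AT4G04205: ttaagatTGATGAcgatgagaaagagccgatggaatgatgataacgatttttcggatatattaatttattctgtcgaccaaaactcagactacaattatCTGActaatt
AT4G02555: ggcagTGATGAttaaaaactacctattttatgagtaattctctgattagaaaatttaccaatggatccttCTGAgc
AT3G01316: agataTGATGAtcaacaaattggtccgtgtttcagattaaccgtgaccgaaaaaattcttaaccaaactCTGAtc
AT4G03295: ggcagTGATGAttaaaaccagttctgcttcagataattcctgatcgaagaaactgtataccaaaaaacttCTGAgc
AT5G07095: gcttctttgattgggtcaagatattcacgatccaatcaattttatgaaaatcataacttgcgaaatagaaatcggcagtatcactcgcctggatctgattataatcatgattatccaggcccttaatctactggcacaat
AT4G04205 had 1.41, 4.42 and 1.84 CPM in NST3pro, against 160.4, 336 and 144 CPM in VND7pro nuclei (-6.47 ± 0.73, adjusted p 1.72e-05). AT3G01316, the most abundant of the 5 in VND7pro nuclei, had 8.18, 48.9 and 3.06 CPM in NST3pro, against 982, 1952 and 771 CPM in VND7pro nuclei (-5.98 ± 0.95, adjusted p 0.000479). AT4G03295 had 41.4, 104 and 35.1 CPM in NST3pro, against 752, 1392 and 628 CPM in VND7pro nuclei (-3.94 ± 0.65, adjusted p 0.000712). All 3 show the C box close to one end and the D box close to the other, and all held without any 1 library. AT5G07095, without such a pair in its sequence, had 1.27, 1.38 and 2.54 CPM in NST3pro, against 103, 229.8 and 100.2 CPM in VND7pro nuclei (-6.31 ± 0.66, adjusted p 7.51e-06), and AT4G02555 had 0.846, 2.21 and 0.613 CPM in NST3pro, against 20.1, 38.5 and 19.1 CPM in VND7pro nuclei (-4.46 ± 0.88, adjusted p 0.00352). The call of AT4G02555 was lost without NST3pro 1, NST3pro 3 or VND7pro 5 (adjusted p up to 0.0259). A C box followed by a D box was found in 10 of the 18 called genes (55.6%) and in 66 of all 116 (56.9%), so called genes did not stand apart in this feature.

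**Figure D5:**
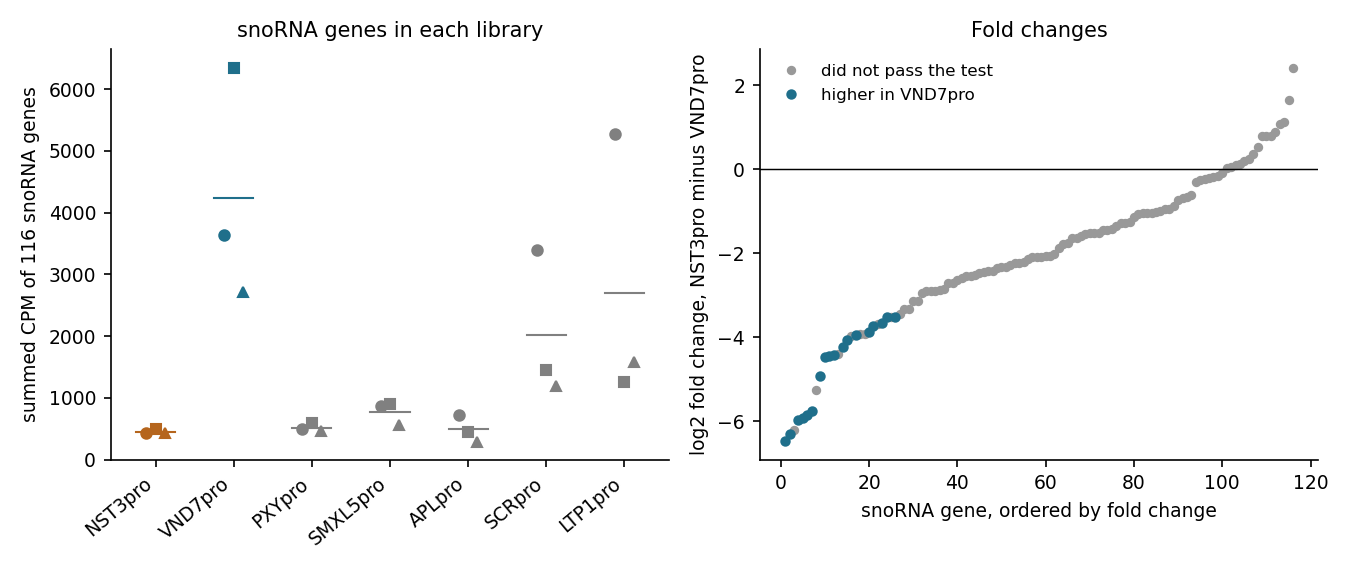
Left, summed TMM-scaled CPM of 116 snoRNA genes in each of the 21 libraries of 7 tissues, 1 point a library with the tissue mean as a bar; the NST3pro libraries lie between 427 and 505 CPM and the VND7pro libraries between 2716 and 6341 CPM. Right, log2 fold change (NST3pro minus VND7pro) of each snoRNA gene in rising order, with the 18 called genes in blue and 100 of 116 below 0.

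Promoters of the 24 genes at both ends were searched for 5 short motifs on both strands, in the 250 bases before the RefSeq gene start, beside all 25800 windows of this kind. AAATATCT is a shortened form of the evening element AAAATATCT, which clock MYB-like factors such as RVE8 and CCA1 bind. Windows of 1 of 12 genes higher in NST3pro nuclei held this shortened form (AT4G31354), against 4.85% of all windows. At the VND7pro end 2 of 12 windows held it (VND5 and BT2). GAGAC, the core of a sulfur response element, was in 3 of 12 (AT4G31354, IPMI1 and AT3G28270) and 2 of 12 (ATPMEPCRB and VND5), against 25.6% of all windows. CTTNAAAG, the first letters of the tracheary element regulating cis-element known from vessel protease promoters, was in 1 of 12 (AT1G68945) and 0 of 12, against 5.15%. CACGTG was in 1 of 12 (AT1G07590) and 0 of 12, against 6.70%, and CCGAC was in 0 of 12 at either end, against 12.03%. The windows of AT4G31354 and VND5 overlap another gene. Matches describe the letters only.
The windows of BT2, at chr3:17910739-17910988 (-) of TAIR10.1, and of IPMI1, at chr3:21798304-21798553 (-), are shown because both genes belong to functions named above. Capitals mark the motif, which lies on the opposite strand in both and therefore reads as its reverse complement.
BT2 promoter: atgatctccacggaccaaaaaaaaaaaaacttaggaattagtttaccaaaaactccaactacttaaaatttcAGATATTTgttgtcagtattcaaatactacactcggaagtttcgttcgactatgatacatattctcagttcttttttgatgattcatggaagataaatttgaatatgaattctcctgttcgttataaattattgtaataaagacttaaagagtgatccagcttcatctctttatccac
IPMI1 promoter: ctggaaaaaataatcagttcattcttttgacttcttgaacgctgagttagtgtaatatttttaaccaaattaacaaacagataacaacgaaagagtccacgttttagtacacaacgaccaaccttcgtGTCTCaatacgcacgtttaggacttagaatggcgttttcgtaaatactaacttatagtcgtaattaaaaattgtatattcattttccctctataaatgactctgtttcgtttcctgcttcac
In BT2 the AAATATCT match starts 178 bases before the gene start, without the further A of the full evening element. In IPMI1 the sulfur response core starts 122 bases before the gene start.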

How the data were processed

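The authors deposited raw read counts per gene for 37051 Araport11 genes (TAIR10), made from single-end Smart-seq2 reads of nuclear RNA, which carry no molecular identifiers. Reads had been trimmed with Cutadapt 2.3, aligned with STAR 2.5.0a, kept where they hit 1 place, and counted over whole gene bodies, introns included, with strand ignored, in R 3.5.0. When more than 3 cDNA preparations existed, those with the clearest H4-GFP contrast by PCR had been sequenced. Intervals for read ratios cover counting error only.

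Groups were taken from the sample titles. Counts of all 21 GFP-positive libraries entered 1 fit with a term for each of 7 tissues, in edgeR 4.0.16 (R 4.3.3; TMM, filterByExpr, glmQLFit and glmQLFTest, two-sided), with NST3pro minus VND7pro as contrast and Benjamini-Hochberg adjustment over all tested genes. Genes were called at an adjusted p under 0.01 and an absolute log2 fold change over 1. The 6 libraries held 3272254 to 14664449 reads. Alternatives (13) comprised other sample sets, DESeq2 1.42.0, limma 3.58.1, another scaling, no filter and the omission of each library. The main test was checked on counts simulated from its own fitted levels and spread, with no outlier library. That check does not bear on how calls depend on single libraries.

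Genes named were the reporter and marker genes, the 12 highest and 12 lowest log2 fold changes among called protein-coding genes outside the photosynthesis and secondary wall lists (average log2 CPM of at least 4, groups not overlapping), up to 6 called members of each functional list, up to 2 uncalled members as values where fewer than 2 were called, and called markers. The remaining members named, the snoRNA class with its box search and the genes of the closing section were chosen after their values were seen. Members and lists were chosen with earlier results of these data known, and 1 list is not reported here. Names, classes and sequences come from RefSeq (TAIR10.1), which matched all 37051 identifiers. Of the 614 called genes, 130 overlap a gene on the opposite strand.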

Additional observations from a re-analysis of the deposited data

How the results depend on the processing

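The counts of called genes moved more than their directions. Against 614 calls (265 higher in NST3pro, 349 higher in VND7pro), leaving out 1 library at a time gave 221 (without VND7pro 5) to 905 (without NST3pro 2) calls, 75 to 428 of them higher in NST3pro and 141 to 534 higher in VND7pro nuclei. Without NST3pro 2 and VND7pro 6, 555 genes were higher in VND7pro nuclei. A fit of 17 libraries, without replicates 2, 6, 15 and 19, gave 2093 calls (793 higher in NST3pro, 1300 higher in VND7pro), and the DESeq2 Wald test gave 2359 (755 higher in NST3pro, 1604 higher in VND7pro). With both groups alone in the fit 3 genes were called, 0 higher in NST3pro nuclei and 3 in VND7pro nuclei; this fit held 6 libraries and tested 25269 genes. All 614 genes kept their direction in the 12 alternatives that tested all of them. Of 71 called genes named by the rule, 65 stayed called without NST3pro 2 and VND7pro 6, 70 with 17 libraries, 70 with DESeq2 size factors, 68 without the filter, 62 with voom weights, 71 with DESeq2 and 1 with both groups alone, and none reversed. Among uncalled genes, the PHO1;H1 log2 fold change ranged from -0.17 (without NST3pro 2) to 1.60 (without VND7pro 6) when 1 library was left out. The CHS log2 fold change (1.76 with all libraries) ranged from -2.45 (without NST3pro 2) to 2.68 (without VND7pro 6), and was -1.59 without NST3pro 2 and VND7pro 6, -1.59 with 17 libraries and -2.21 with voom weights. The cause of these shifts was not tested. No paired analysis was possible because the libraries are numbered serially and no number is shared between NST3pro and VND7pro. Depth limits genes with few reads, above all in NST3pro 2, VND7pro 5 and VND7pro 6, the shallowest libraries.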

Other observations

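Further called genes, chosen after their values were seen and given as values, are single genes outside the lists and stand for no group. VLN1, an actin-bundling villin, had 94.6, 58.9 and 93.2 CPM in NST3pro, against 569, 531 and 235 CPM in VND7pro nuclei (-2.43 ± 0.38, adjusted p 0.000399). The formin FH5 had 17.3, 18.24 and 11.8 CPM in NST3pro, against 126, 137 and 53.4 CPM in VND7pro nuclei, and ARPC2B, of the ARP2/3 complex, had 94.7, 29 and 95 CPM in NST3pro, against 719, 885 and 275 CPM in VND7pro nuclei. The kinesin KP1 had 137, 75.2 and 139.6 CPM in NST3pro, against 692, 720.4 and 274 CPM in VND7pro nuclei, and groups were separate for all 4 genes.

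The arabinofuranosidase ASD1 had 116, 24.6 and 102 CPM in NST3pro, against 1080.0, 1094 and 395 CPM in VND7pro nuclei (-3.40 ± 0.53, adjusted p 0.000421). RXF12, a xylanase of glycosyl hydrolase family 10, had 61.5, 90.4 and 60.2 CPM in NST3pro, against 1149, 1232 and 436 CPM in VND7pro nuclei (-3.73 ± 0.41, adjusted p 1.49e-05). BGAL12, a beta-galactosidase, had 18.19, 9.12 and 6.92 CPM in NST3pro, against 83.8, 144 and 71.4 CPM in VND7pro nuclei, and AGAL2, an alpha-galactosidase, had 51.2, 42.3 and 76.3 CPM in NST3pro, against 877, 760.2 and 259.8 CPM in VND7pro nuclei. The laccase LAC2 had 134, 219 and 85.5 CPM in NST3pro, against 2816, 2737 and 1086 CPM in VND7pro nuclei (-3.92 ± 0.64, adjusted p 0.000635). In the 15 libraries of other tissues RXF12 reached at most 96.4 CPM, so its VND7pro libraries stood above all of them.

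Some genes were higher in NST3pro nuclei. VTC2, which controls ascorbate synthesis, had 579, 215 and 675 CPM in NST3pro, against 66.1, 87.6 and 35.9 CPM in VND7pro nuclei (2.96 ± 0.48, adjusted p 0.000658). TPX1, a thioredoxin-dependent peroxidase, had 272, 147 and 349.6 CPM in NST3pro, against 46.6, 55.9 and 18.9 CPM in VND7pro nuclei, MSRB5, a methionine sulfoxide reductase, had 98.7, 44.5 and 98.9 CPM in NST3pro, against 6.84, 13.1 and 15.2 CPM in VND7pro nuclei, and GOX1, glycolate oxidase, had 462, 126 and 547 CPM in NST3pro, against 41.5, 44.9 and 35 CPM in VND7pro nuclei. MYB48, a relative of MYB59, had 151, 52 and 150.5 CPM in NST3pro, against 9.63, 18.6 and 10.8 CPM in VND7pro nuclei (3.20 ± 0.45, adjusted p 0.000162). XIP1, a receptor kinase of vascular development, had 32.8, 28.5 and 41.3 CPM in NST3pro, against 5.56, 8.04 and 4.61 CPM in VND7pro nuclei (2.52 ± 0.42, adjusted p 0.000735). For XIP1 the 15 libraries of other tissues held 9.17 to 131 CPM, so VND7pro libraries stood below all of them. For each gene of this paragraph, all NST3pro libraries were above all VND7pro libraries.

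CVP2, a phosphatase of vein patterning, had 7.05, 7.46 and 8.14 CPM in NST3pro, against 93.3, 99.9 and 50.2 CPM in VND7pro nuclei (-3.42 ± 0.52, adjusted p 0.00033), and the polyamine oxidase PAO4 had 12.8, 8.84 and 6.92 CPM in NST3pro, against 80.2, 97.8 and 99.3 CPM in VND7pro nuclei (-3.28 ± 0.37, adjusted p 1.72e-05). For PAO4, VND7pro 6 was as high as VND7pro 4 and 5. The non-coding RNA gene AT4G07070 had 6.63, 20.2 and 3.85 CPM in NST3pro, against 924, 1601 and 488 CPM in VND7pro nuclei (-6.67 ± 0.76, adjusted p 1.74e-05), and other annotated genes overlap 25.2% of it. The receptor-like kinase gene AT1G54475 was at 0 reads in NST3pro and had 51.3, 25 and 13.6 CPM in VND7pro nuclei, and the other 15 libraries held at most 7.68 CPM. All genes named in these paragraphs kept their call whichever library was left out.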
